A study of Sus scrofa with 9 samples.

Results

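Immediate early transcription factors are encoded by genes that cells switch on within minutes of a stimulus, from regulators already present, before new proteins are made. The 10 genes described here belong to 5 families. FOS, FOSB, JUN and JUNB encode subunits of AP-1, a dimer of basic leucine zipper proteins; ATF3 is a stress-induced leucine zipper factor that pairs with JUN proteins; EGR1 is a zinc finger factor; NR4A1, NR4A2 and NR4A3 are orphan nuclear receptors; and MYC is a basic helix-loop-helix factor that drives growth genes. In heart muscle several of them are known to respond to stretch, adrenergic stimulation and injury. They were chosen by symbol from the deposited count table of 30942 genes: 9 of the 10 symbols had a row, all 9 passed the filter on low counts, and NR4A1 had no row under that name.

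The samples were hearts of wild-type miniature pigs (Sus scrofa) in 3 groups of 3 libraries, given doxorubicin plus formononetin, doxorubicin alone, or vehicle. Doxorubicin, an anthracycline used in cancer treatment, is toxic to heart muscle, and formononetin is a plant isoflavone; the series asks whether activating the pathway of the nuclear receptor ERR-alpha eases that toxicity. The labels used here give neither dose nor duration, time since the last dose, heart chamber, age or sex, and no group had formononetin alone. Because these transcripts rise and decay quickly, the values are those at the unstated moment of sampling. Whether each library stands for its own animal is not stated; p-values therefore describe the spread between libraries, part or all of which may be technical.

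Library totals ran from 16291952 to 17549359 counts, and mitochondrially encoded genes took 20.7% to 28.8% of them. Doxorubicin plus formononetin replicate 2 differed from the rest, with 14766 genes detected against 18107 to 19304 in the other libraries. All 12 cardiomyocyte markers were detected, with a summed level from 68310 to 73090 counts per 1000000 scaled counts (CPM) with doxorubicin plus formononetin, 52780 to 60880 CPM with doxorubicin and 77520 to 86610 CPM in the vehicle group. With doxorubicin against vehicle 10 of the 12 fell and 1 rose, and 7 rose with formononetin added. Marker counts here are to be read beside the shares of all genes at an adjusted p under 0.05 (edgeR). These were 16.3% higher and 17% lower with doxorubicin, and 14.7% higher and 13.5% lower with formononetin added. The 6 Schwann cell markers summed to 90.9 to 153 CPM, 39.4 to 43.7 CPM and 57.6 to 76.4 CPM in the same order of groups, and the 7 adipocyte markers to 119 to 138, 71.7 to 76.6 and 178 to 196 CPM. The 9 endothelial markers summed to 1274 to 1416 CPM with doxorubicin plus formononetin, 923 to 1098 CPM with doxorubicin and 1095 to 1555 CPM with vehicle. The 9 fibroblast markers summed to 3625 to 7546, 2465 to 3586 and 3345 to 5771 CPM, and the 9 of smooth muscle and pericytes to 904 to 1734, 785 to 877 and 788 to 1092 CPM, in that order of groups. Of these 6 lists only LEP, an adipocyte marker, was at 0 in all libraries of a group, with doxorubicin plus formononetin. The 9 macrophage markers summed to 234 to 266, 286 to 316 and 164 to 294 CPM in the same order of groups. The 12 lymphocyte markers summed to 55.2 to 68.8, 62.1 to 83.5 and 40.8 to 60.5 CPM. With doxorubicin against vehicle 1 of 9 macrophage and 2 of 8 lymphocyte genes tested rose, with medians of 0.37 and 0.53. Of genes tested, 3 of 6 Schwann cell and 4 of 6 adipocyte markers fell there. So did 4 of 9 endothelial, 3 of 9 fibroblast and 3 of 9 smooth muscle and pericyte markers. With formononetin added 6 Schwann cell, 1 adipocyte, 1 erythroid, 3 endothelial, 4 fibroblast and 3 smooth muscle and pericyte markers rose. In the same comparison 2 macrophage markers and 1 of smooth muscle and pericytes fell. Neutrophil and mast cell sums overlapped between all groups, as did erythroid sums. Sums of several lists thus moved with the groups, in both directions, and their part in the results on the early factors was not tested. In bulk tissue, fewer cells of a type and less RNA per cell cannot be told apart.

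**Figure D1:**
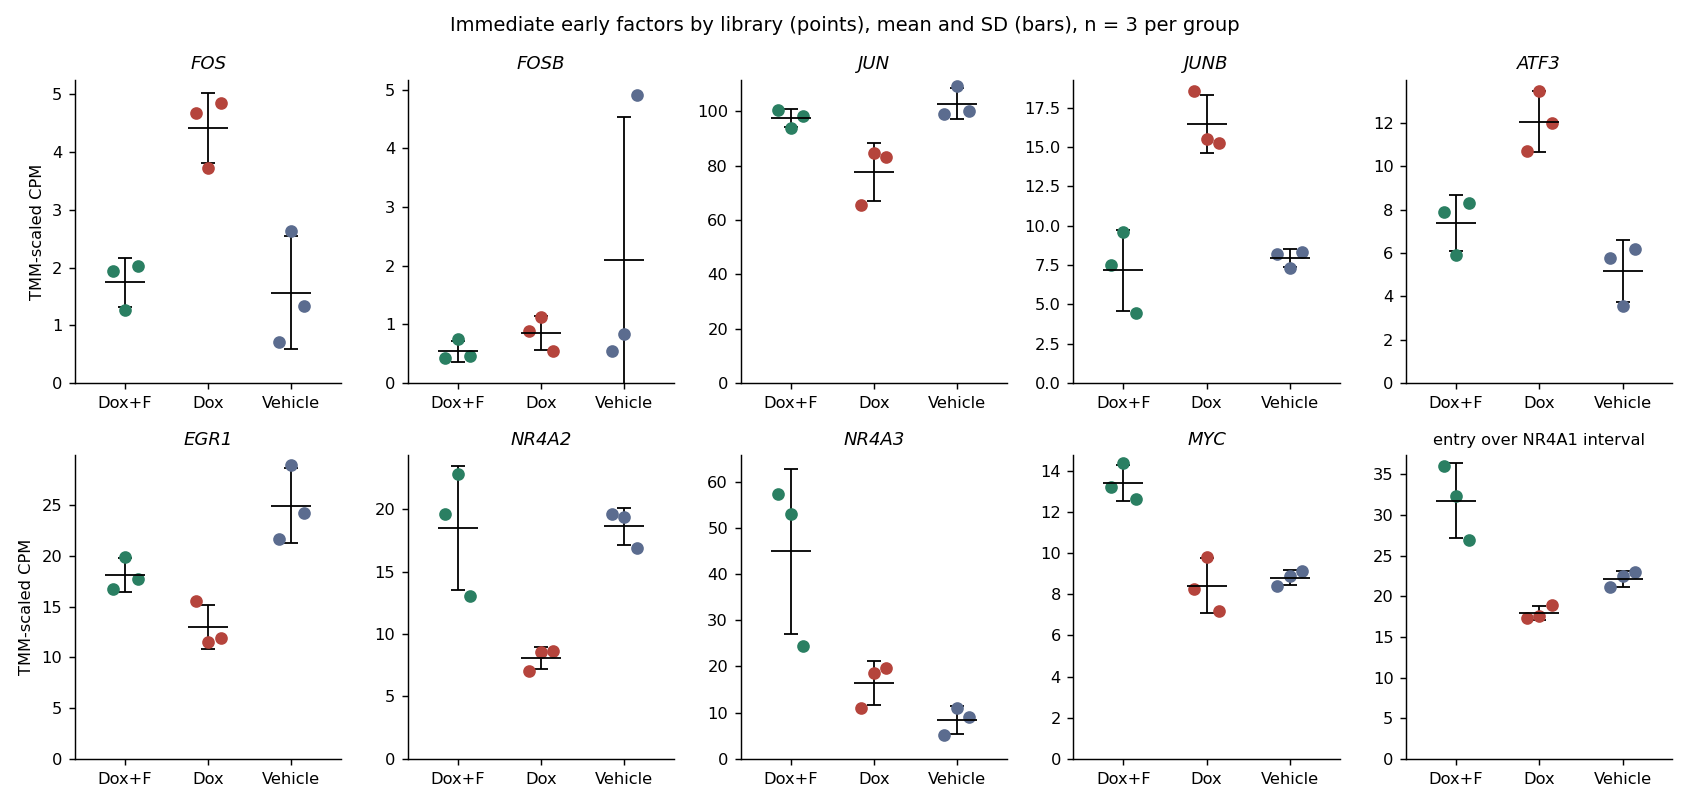
TMM-scaled CPM of the 9 early factors and of the unnamed entry that covers the NR4A1 interval, for doxorubicin plus formononetin (Dox+F), doxorubicin (Dox) and vehicle. Points are libraries and bars are mean and SD of 3 libraries, cut at 0 for FOSB; FOS, JUNB and ATF3 are highest with doxorubicin, NR4A3 with doxorubicin plus formononetin, and 1 vehicle library stands alone in FOSB at 4.90 CPM.

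Doxorubicin hearts differed from vehicle hearts in 6 of the 9 early factors, in both directions. FOS, JUNB and ATF3 rose by 1.05 to 1.49 on the log2 scale, JUN, EGR1 and NR4A2 fell, and FOSB, NR4A3 and MYC did not pass an adjusted p of 0.05 (edgeR quasi-likelihood test, adjusted over 14846 genes). Of all genes tested, 33.3% were called in this comparison, 16.3% higher and 17% lower with doxorubicin. The groups did not overlap for 6 of the 9 factors, where 55.3% of all genes did not overlap. The median absolute log2 fold change was 1.05 over the 9 factors and 0.43 over all genes. The factors were chosen with earlier results of these data known, so this contrast is only a description. It includes FOSB, a gene of few reads, at -1.29, which became 0.30 without vehicle replicate 3.

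With formononetin added to doxorubicin, 7 of the 9 factors differed from doxorubicin alone: NR4A2, NR4A3, EGR1 and MYC rose, and FOS, JUNB and ATF3 fell. With 1 library left out the count was 4 to 6; it was 4 without doxorubicin plus formononetin replicate 1 or 2, doxorubicin replicate 2 or 3, or vehicle replicate 3. NR4A2, NR4A3, MYC and JUNB kept the call in each case. Of all genes, 28.1% were called, 14.7% higher and 13.5% lower. The groups did not overlap for 8 of the 9, beside 42.2% of all genes. Both comparisons share the 3 doxorubicin libraries, so a high or low level in those libraries moves both, in opposite directions. Against vehicle, doxorubicin plus formononetin hearts differed in 1 factor, NR4A3, which rose, and 1.76% of all genes were called, 0.956% higher and 0.808% lower. The groups did not overlap for 3 of the 9 factors, NR4A3, MYC and EGR1, beside 23.6% of all genes; this comparison shares its libraries with the others too.

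**Figure D2:**
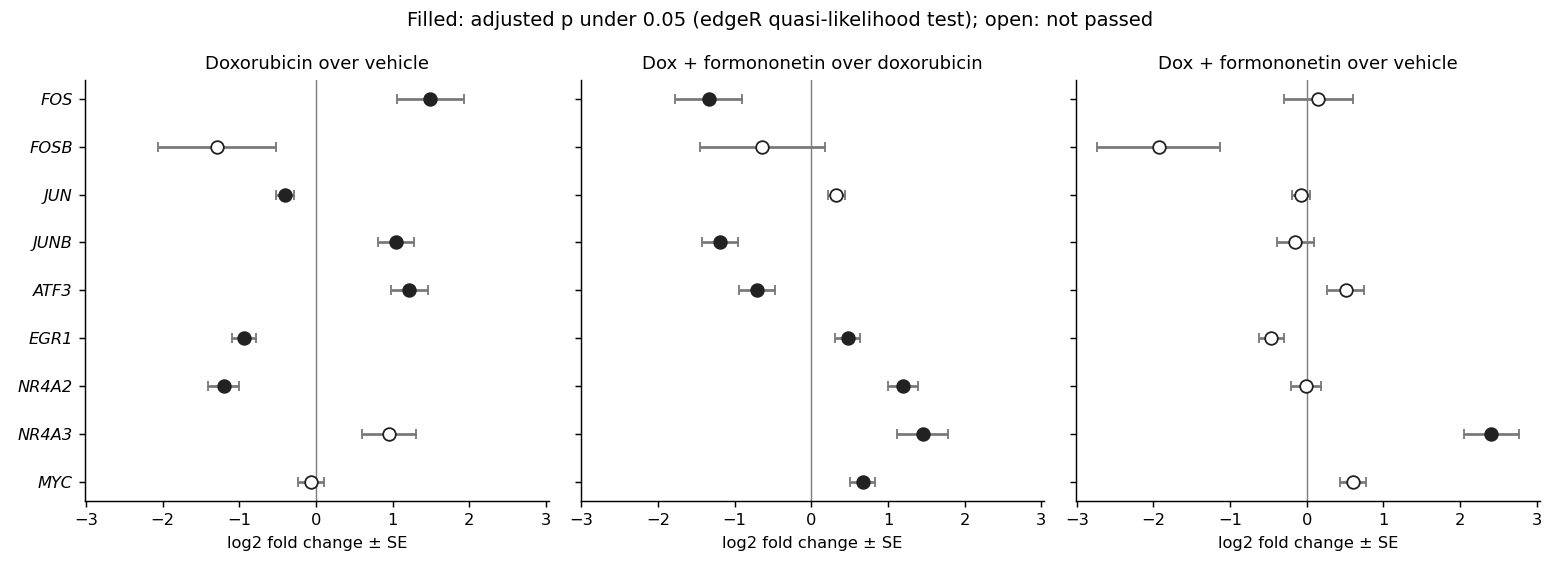
Log2 fold changes with standard errors for the 9 early factors in the 3 comparisons, with filled points for an adjusted p under 0.05. Doxorubicin over vehicle has 3 filled points on each side of 0, doxorubicin plus formononetin over doxorubicin has 4 above and 3 below, and doxorubicin plus formononetin over vehicle has 1, NR4A3 at 2.41.

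FOS (chr7:98449508-98451971, plus strand, Sscrofa11.1), the best known AP-1 subunit, had few reads in all hearts, with 12 to 85 counts per library. Its level was 1.95, 1.26 and 2.03 CPM with doxorubicin plus formononetin, 4.68, 3.73 and 4.85 CPM with doxorubicin, and 0.721, 2.64 and 1.34 CPM with vehicle. Every doxorubicin library stood above every library of the other groups, and the vehicle libraries were the most spread. FOS rose by 1.49 ± 0.44 (log2 fold change ± SE) with doxorubicin against vehicle, with adjusted p = 0.0231 by the edgeR test. It fell by 1.34 ± 0.44 with formononetin added, with adjusted p = 0.0415 by the same test. Neither call held with every library left out. The first was lost when doxorubicin replicate 1 or 3 or vehicle replicate 1 or 3 was left out (adjusted p from 0.0675 to 0.0825, edgeR). The second was lost when any doxorubicin plus formononetin or doxorubicin library, or vehicle replicate 3, was left out (adjusted p from 0.0527 to 0.11, edgeR). The log2 fold change stayed between 1.16 and 2.09 in the first comparison and between -1.46 and -1.15 in the second over the libraries left out in turn. Doxorubicin plus formononetin against vehicle gave 0.15 ± 0.45 (adjusted p = 0.89, edgeR).

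FOSB (chr6:51836780-51844531, plus strand), a paralog of FOS, had the fewest reads of the factors per kilobase, and its vehicle mean was set by 1 library. It read 0.426, 0.745 and 0.458 CPM with doxorubicin plus formononetin, 0.881, 1.12 and 0.553 CPM with doxorubicin, and 0.541, 0.840 and 4.90 CPM with vehicle. Vehicle replicate 3 held 88 counts, against 7 to 19 counts in each of the other 8 libraries. The same library was not the highest of its group in FOS, JUN, EGR1, NR4A2 or NR4A3, and was so by a small margin in JUNB, ATF3 and MYC. The log2 fold change of FOSB with doxorubicin against vehicle was -1.29 ± 0.77 (adjusted p = 0.222, edgeR) with that library and 0.30 without it; doxorubicin plus formononetin against vehicle gave -1.93 ± 0.80 (adjusted p = 0.255, edgeR) and -0.34. Between doxorubicin plus formononetin and doxorubicin, which overlapped, it was -0.64 ± 0.82 (adjusted p = 0.586, edgeR).

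JUN (chr6:153686425-153687635, plus strand), the main partner of FOS proteins, was per kilobase the most abundant factor in each group, with 1188 to 1822 counts per library. It stood at 100.4, 94.0 and 98.3 CPM with doxorubicin plus formononetin, 65.4, 84.5 and 83.3 CPM with doxorubicin, and 98.8, 109 and 100.1 CPM with vehicle. All 3 doxorubicin libraries were below all the others. JUN fell with doxorubicin against vehicle (log2 fold change -0.40 ± 0.11, adjusted p = 0.0188, edgeR), a call lost without doxorubicin replicate 1 (-0.29, adjusted p = 0.0735) or vehicle replicate 2 (-0.36, adjusted p = 0.0762). With formononetin added the log2 fold change against doxorubicin was 0.33 ± 0.11 and just missed the threshold (adjusted p = 0.0514, edgeR), while DESeq2 (0.0272) and limma-voom (0.042) called it. The other 15 of the 17 alternatives did not. Among them were total-count scaling (adjusted p = 0.133) and the fit without doxorubicin replicate 1 (0.22, adjusted p = 0.188, edgeR for both). Doxorubicin plus formononetin against vehicle gave -0.08 ± 0.11 (adjusted p = 0.777, edgeR).

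JUNB (chr2:66214086-66219435, minus strand), a JUN paralog that can restrain JUN activity, went the other way. It read 7.48, 9.57 and 4.45 CPM with doxorubicin plus formononetin, 18.6, 15.5 and 15.2 CPM with doxorubicin, and 8.23, 7.32 and 8.30 CPM with vehicle. The doxorubicin libraries did not overlap either of the other groups, which overlapped each other. JUNB rose with doxorubicin (1.05 ± 0.24, adjusted p = 0.00627, edgeR) and fell with formononetin added (-1.19 ± 0.24, adjusted p = 0.00431, edgeR). Both calls were kept with each of the 9 libraries left out in turn, and doxorubicin plus formononetin against vehicle gave -0.15 ± 0.24 (adjusted p = 0.795, edgeR). Within a library, where scaling plays no part, JUN counts were 13.4, 9.83 and 22.1 times JUNB counts with doxorubicin plus formononetin, 3.53, 5.45 and 5.46 times with doxorubicin, and 12, 14.9 and 12.1 times with vehicle. The lower ratio was thus present in all 3 doxorubicin libraries; this ratio was chosen after the values were seen and carries no test.

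ATF3 (chr9:130772259-130829678, minus strand), which is induced by many stresses and can repress as well as activate, followed FOS and JUNB in direction. Its level was 7.90, 5.90 and 8.32 CPM with doxorubicin plus formononetin, 10.7, 13.5 and 11.98 CPM with doxorubicin, and 5.77, 3.54 and 6.19 CPM with vehicle. It rose by 1.22 ± 0.24 with doxorubicin against vehicle (adjusted p = 0.0027, edgeR), and this call was kept with each library left out. With formononetin added it fell by 0.71 ± 0.23 (adjusted p = 0.0412, edgeR). That second call was lost without doxorubicin plus formononetin replicate 1 or 2, any doxorubicin library, or vehicle replicate 1 or 3 (adjusted p from 0.0529 to 0.135, edgeR). Doxorubicin plus formononetin and vehicle libraries overlapped, with a log2 fold change of 0.51 ± 0.24 (adjusted p = 0.31, edgeR).

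EGR1 (chr2:140440829-140445302, plus strand), a zinc finger factor driven by serum response factor, was lower with doxorubicin. It stood at 16.7, 19.9 and 17.7 CPM with doxorubicin plus formononetin, 15.5, 11.5 and 11.9 CPM with doxorubicin, and 21.7, 29.0 and 24.2 CPM with vehicle. No 2 of the 3 groups overlapped, and the doxorubicin plus formononetin libraries lay between the other groups. EGR1 fell by 0.94 ± 0.16 with doxorubicin against vehicle (adjusted p = 0.00143, edgeR), kept with each library left out. Against doxorubicin, the rise with formononetin of 0.48 ± 0.16 was barely past the threshold (adjusted p = 0.0477, edgeR) and was lost under every library left out other than doxorubicin replicate 1 (adjusted p from 0.0522 to 0.156). It was also lost with total-count scaling (0.39, adjusted p = 0.151), with RLE size factors (0.0505), by limma-voom (0.0546) and with only the 2 groups compared (0.0838). Against vehicle the log2 fold change was -0.46 ± 0.16 (adjusted p = 0.182, edgeR).

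Both named NR4A receptors in the table rose with formononetin added to doxorubicin. NR4A2 (chr15:63487051-63506249, minus strand), known for its role in dopamine neurons and also induced in other tissues, read 19.6, 22.8 and 13.03 CPM with doxorubicin plus formononetin, 7.05, 8.52 and 8.66 CPM with doxorubicin, and 19.6, 19.4 and 16.9 CPM with vehicle. All doxorubicin libraries were below all others, while the other 2 groups overlapped. NR4A2 fell by 1.21 ± 0.20 with doxorubicin against vehicle (adjusted p = 0.00121, edgeR) and rose by 1.20 ± 0.20 with formononetin added (adjusted p = 0.0018, edgeR). Neither call was lost when any 1 library was left out. Doxorubicin plus formononetin against vehicle gave -0.01 ± 0.19 on the log2 scale (adjusted p = 0.986, edgeR).

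NR4A3 (chr1:241569867-241611735, plus strand), the paralog known in muscle as an exercise- and adrenergic-responsive receptor, stood highest where both drugs were given. It measured 57.4, 52.9 and 24.5 CPM with doxorubicin plus formononetin, 11.1, 18.6 and 19.7 CPM with doxorubicin, and 5.17, 11.1 and 9.08 CPM with vehicle. Doxorubicin plus formononetin replicate 3 was well below the other 2 of its group and still above every doxorubicin library; doxorubicin and vehicle libraries touched, at 11.07 and 11.10 CPM. NR4A3 rose by 1.45 ± 0.34 with doxorubicin plus formononetin against doxorubicin (adjusted p = 0.00922, edgeR) and by 2.41 ± 0.35, or 5.32-fold, against vehicle (adjusted p = 0.00672, edgeR). It ranked 53rd by p among the 14846 genes against vehicle, and both calls were kept with each library left out (against vehicle, 2.17 to 2.71). With doxorubicin alone the log2 fold change against vehicle was 0.96 ± 0.35 (adjusted p = 0.056, edgeR). That value passed without doxorubicin plus formononetin replicate 2 (0.0449) or 3 (0.0176), without doxorubicin replicate 1 (0.0374), by DESeq2 (0.0163), with no filter on low counts (0.0129) and with only the 2 groups compared (0.0183). It did not pass in the other 11 of the 17 alternatives. Among these were limma-voom (0.115) and the fit without vehicle replicate 1, which gave the highest adjusted p (0.178, edgeR).

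NR4A1 has no row by name, but an entry without a symbol in the deposited table, on the plus strand of chr5:17392002-17408514 (Sscrofa11.1), covers the interval 17403088 to 17407918 that RefSeq annotates as NR4A1 and classes as a pseudogene on this assembly. The deposited description of the entry lists a C4 zinc finger and a nuclear receptor ligand-binding domain. It is given here beside the family and is not counted among the 9. It read 36.0, 32.4 and 26.9 CPM with doxorubicin plus formononetin, 17.4, 17.6 and 19.0 CPM with doxorubicin, and 21.1, 22.5 and 23.0 CPM with vehicle. No 2 groups overlapped: doxorubicin plus formononetin was highest and doxorubicin lowest. The entry rose by 0.82 ± 0.13 with formononetin added to doxorubicin (adjusted p = 0.00123, edgeR), a call kept with each library left out. The other comparisons did not pass, at 0.52 ± 0.13 for doxorubicin plus formononetin against vehicle (adjusted p = 0.0684) and -0.30 ± 0.13 for doxorubicin against vehicle (adjusted p = 0.092, edgeR for both); without doxorubicin plus formononetin replicate 3 the comparison of doxorubicin plus formononetin with vehicle reached 0.0233, and by DESeq2 0.0162. Doxorubicin against vehicle reached 0.0439 with only the 2 groups compared. Of 17 alternatives, the other 15 did not pass for doxorubicin plus formononetin against vehicle (highest adjusted p = 0.214, edgeR). For doxorubicin against vehicle the other 16 did not pass (highest adjusted p = 0.22, edgeR). As ratios within a library, NR4A3 counts were 2.92, 2.32 and 1.88 times NR4A2 counts with doxorubicin plus formononetin, 1.57, 2.19 and 2.27 times with doxorubicin, and 0.264, 0.573 and 0.538 times with vehicle. NR4A2 thus held more counts than NR4A3 in the vehicle libraries and fewer in the other 6, a pattern chosen after the values were seen; the deposited lengths of the pair are 6085 and 5788 bases.

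MYC (chr4:12455141-12460360, minus strand), which promotes ribosome production and cell growth, did not differ detectably with doxorubicin alone. It read 13.2, 14.4 and 12.6 CPM with doxorubicin plus formononetin, 8.26, 9.82 and 7.19 CPM with doxorubicin, and 8.41, 8.88 and 9.14 CPM with vehicle. The doxorubicin plus formononetin libraries were above all others. MYC rose by 0.67 ± 0.17 with doxorubicin plus formononetin against doxorubicin (adjusted p = 0.0121, edgeR), a call kept with each library left out. Against vehicle it was at 0.61 ± 0.17 (adjusted p = 0.0963, edgeR). This passed by DESeq2 (0.0372) and in none of the other 16 of 17 alternatives (highest adjusted p = 0.274, edgeR). Doxorubicin against vehicle gave -0.07 ± 0.17 (adjusted p = 0.798, edgeR).

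**Figure D3:**
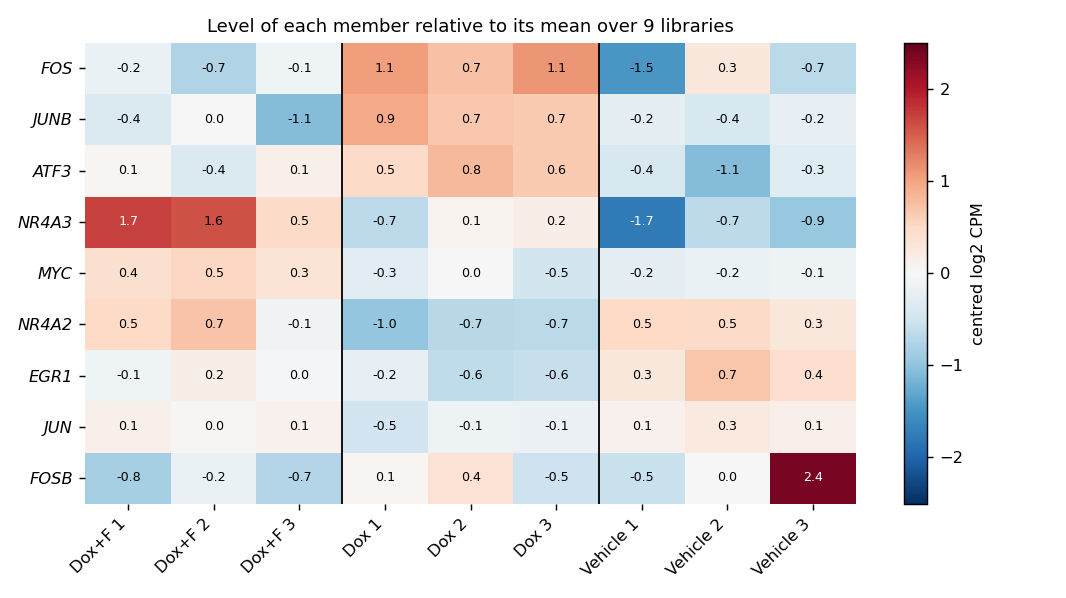
Centred log2 CPM of the 9 early factors in each library, where 0 is the mean of a gene over the 9 libraries. The 3 doxorubicin libraries are high in FOS, JUNB and ATF3 and low in NR4A2, EGR1 and JUN; NR4A3 and MYC are high with doxorubicin plus formononetin, and FOSB is high in vehicle replicate 3 alone.

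Levels of different genes were set side by side only per kilobase of deposited gene length, which is limited here because the deposited lengths differ in kind: that of FOS is 1143 bases in a gene span of 2464, while that of JUNB is its whole span of 5350. On this scale JUN led in every group, at 80.6 ± 2.69, 64.2 ± 8.81 and 84.9 ± 4.75 CPM per kilobase with doxorubicin plus formononetin, doxorubicin and vehicle, and FOSB had the lowest mean in all 3. The order between them differed by group. With doxorubicin plus formononetin NR4A3 came next (7.76 ± 3.08), and its libraries overlapped those of MYC (5.44 ± 0.36), which overlapped EGR1 (4.81 ± 0.44). With doxorubicin ATF3 came next (5.45 ± 0.64), clear of FOS (3.87 ± 0.53); FOS, EGR1, MYC, JUNB and NR4A3 then each overlapped the next, and NR4A2 (1.33 ± 0.15) lay below them. With vehicle EGR1 came next (6.63 ± 0.99) and MYC followed (3.58 ± 0.15), each clear of the next, while JUNB, NR4A3, FOS and FOSB, in that order, each overlapped the next.

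Profiles over the 9 libraries were compared by the root mean square (RMS) difference of centred log2 CPM, as a description. An RMS depends on how much a gene varies, so its size is not compared between factors. Outside the set, and among genes whose SD was at least 0.8 times that of the factor, ATF3 was nearest to CREM, a cAMP-responsive leucine zipper factor (RMS 0.153). JUNB was nearest to LPAR6, a lysophosphatidic acid receptor (0.166), and to MVP, the major vault protein (0.212), and GPR34 (0.218). NR4A2 was nearest to NFKBIL1 (0.108), SUMO3 (0.113) and FN3K (0.124), and EGR1 to the DNA glycosylase OGG1 (0.106), LOC106505937 (0.106) and JADE2 (0.111). The genes nearest to ATF3 after CREM were LOC102165834 (0.158) and EXOC5 (0.174). JUN was nearest to MLF2 (0.0613), AES (0.0702) and PARP1 (0.0721), and MYC to NEURL2 (0.104), MEGF9 (0.115) and an entry without a symbol (0.136). FOS was nearest to BANK1 (0.313), SOSTDC1 (0.322) and SLC2A6 (0.326). NR4A3 was nearest to LOC110257724 (0.365), the alpha-1B adrenergic receptor gene ADRA1B (0.388) and SMOC2 (0.488), and FOSB to LOC100518170 (0.537), KERA (0.677) and CACNA2D2 (0.750). ADRA1B averaged 16.9 CPM with doxorubicin plus formononetin, 6.38 CPM with doxorubicin and 2.42 CPM with vehicle. It was picked from 1962 eligible genes for its likeness to NR4A3 in these same libraries, so its means are no separate result. A link between the 2 genes was not tested.

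Related genes were read from 12 lists with 165 genes tested, chosen with earlier results of these data known. With doxorubicin against vehicle 38 rose and 38 fell, or 46.1%, beside 33.3% of all genes; the median log2 fold change of the lists was 0.02 and that of all genes 0.00. With formononetin added to doxorubicin 30 rose and 36 fell (40.0%, beside 28.1% of all genes), with medians of -0.08 for the lists and -0.01 for all genes. For doxorubicin plus formononetin against vehicle 1 rose and 5 fell (3.64%, beside 1.76%), with medians of -0.04 and -0.01. Of these calls only the fall of KLF10 was kept with each of the 9 libraries left out in turn. GADD45B, the gene that rose, lost the call in 7 cases. Among the falls RPS6KA5 lost it in 7 cases, BTG2 in 8, PPP1R15A in 2 and HSP70.2 in 1. The counts given below for each list are to be read beside the shares of all genes. These were 16.3% higher and 17% lower with doxorubicin, and 14.7% higher and 13.5% lower with formononetin added. No list was tested against these shares.

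**Figure D4:**
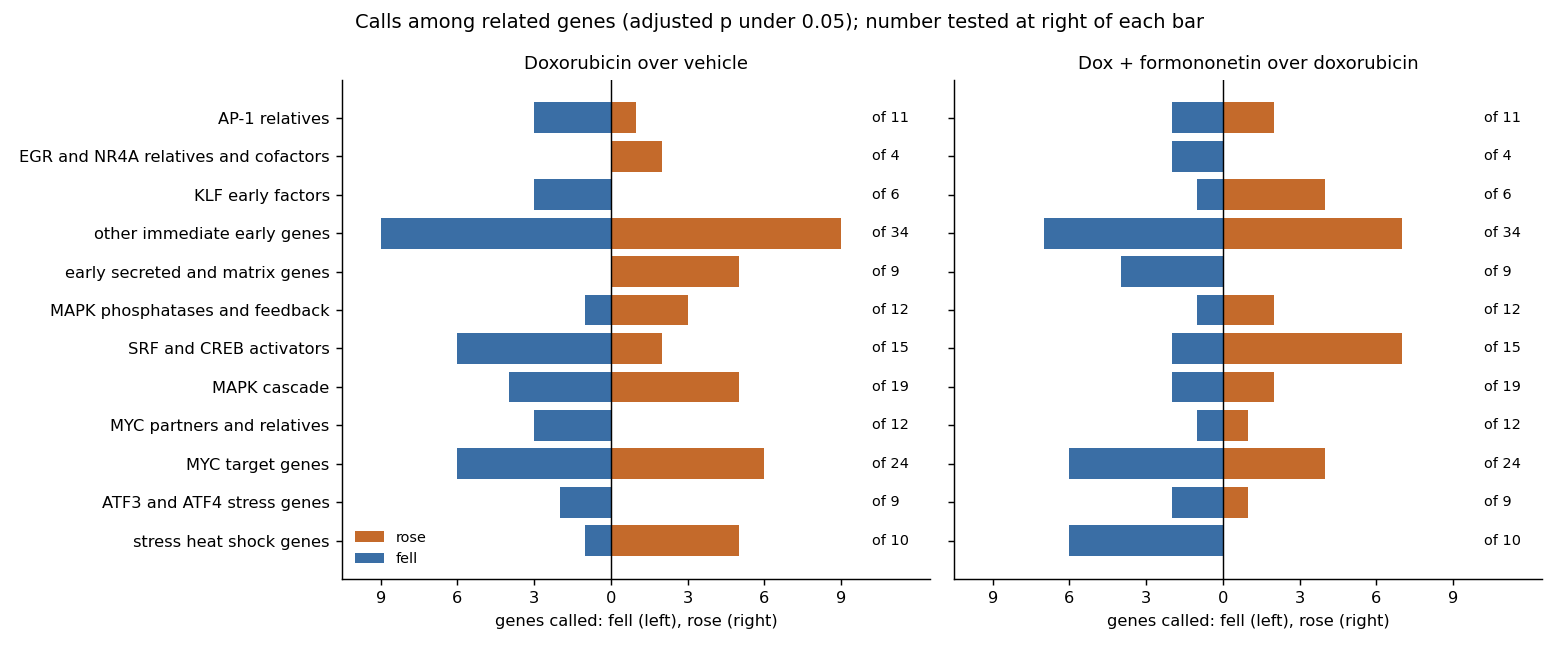
Number of genes that rose (right) or fell (left) at an adjusted p under 0.05 in each list of related genes, for doxorubicin over vehicle and for doxorubicin plus formononetin over doxorubicin, with the number tested beside each bar. Early secreted and matrix genes show 5 rises in the first panel and 4 falls in the second; SRF and CREB activators show 6 falls and 2 rises in the first and 7 rises and 2 falls in the second.

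Activators upstream of the early genes include the factors that bind their promoters. SRF, the serum response factor that drives FOS and EGR1, averaged 78.3 ± 19.7 CPM with doxorubicin plus formononetin, 44.9 ± 4.79 CPM with doxorubicin and 94.2 ± 3.63 CPM with vehicle (SD, n = 3 each). It fell with doxorubicin (log2 fold change -1.07 ± 0.16, adjusted p = 6.76e-04, edgeR) and rose with formononetin added (0.80 ± 0.16, adjusted p = 0.00435, edgeR). The CREB coactivators CRTC1 (-0.92 ± 0.21) and CRTC2 (-1.01 ± 0.17) fell with doxorubicin and rose with formononetin added (1.04 ± 0.21 and 0.96 ± 0.17). The CREB relatives CREM (1.06 ± 0.15) and ATF1 (0.53 ± 0.12) rose with doxorubicin. With formononetin added ATF1 fell by 0.58 ± 0.12 and CREM by 0.47 ± 0.15, and CREM lost the call without doxorubicin plus formononetin replicate 1 or 2, any doxorubicin library or vehicle replicate 1 (highest adjusted p = 0.097, edgeR). In all, 6 of 15 genes in this list fell and 2 rose with doxorubicin, and 7 rose and 2 fell with formononetin added, with list medians of -0.17 and 0.34 on the log2 scale.

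Among MAP kinase genes, which carry the signal to those factors, 5 of 19 rose and 4 fell with doxorubicin (list median 0.08). The count was 4, 5 and 4 in all without doxorubicin replicate 1, vehicle replicate 1 and vehicle replicate 2. The kinase RPS6KA3 rose (0.74 ± 0.13) with MAPK9 (0.54 ± 0.11), and HRAS (-1.01 ± 0.19) and MAPK3 (-0.52 ± 0.10), which encodes ERK1, fell. With formononetin added MAPK3 rose (0.51 ± 0.10) and RPS6KA3 fell (-0.69 ± 0.13), among 2 rises and 2 falls. Of 12 phosphatase and feedback genes, 3 rose and 1 fell with doxorubicin, and 2 rose and 1 fell with formononetin added; in all 2 were left in the first comparison without doxorubicin replicate 3 or any vehicle library, and 1 in the second without doxorubicin plus formononetin replicate 1, any doxorubicin library, or vehicle replicate 1 or 3. Among them was DUSP5, a nuclear phosphatase of ERK and itself an early gene. It averaged 0.684 ± 0.202, 3.41 ± 0.673 and 0.742 ± 0.151 CPM with doxorubicin plus formononetin, doxorubicin and vehicle, a rise with doxorubicin of 2.19 ± 0.44 (adjusted p = 0.00324) and, with formononetin added, -2.30 ± 0.44 (adjusted p = 0.00354, edgeR for both). DUSP1, another early phosphatase, did not pass in either comparison (0.41, adjusted p = 0.137, and -0.29, adjusted p = 0.306, edgeR).

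Relatives of the factors moved in both directions: of 11 AP-1 relatives 1 rose and 3 fell with doxorubicin, and 2 rose and 2 fell with formononetin added (2 or fewer in all without doxorubicin plus formononetin replicate 1, doxorubicin replicate 1 or 2, or any vehicle library). The small MAF protein gene MAFK fell with doxorubicin (-0.90 ± 0.12, adjusted p = 3.94e-04) and rose with formononetin added (0.88 ± 0.12, adjusted p = 6.67e-04, edgeR for both). The others called with doxorubicin, JUND (-0.46), JDP2 (-0.71) and ATF2 (0.36), each lost the call when single doxorubicin or vehicle libraries were left out, so that the count was 1 without doxorubicin replicate 1 or 2 or vehicle replicate 2 or 3 and 2 without doxorubicin replicate 3 (highest adjusted p = 0.0802, 0.114 and 0.0938, edgeR). FOSL2 fell with formononetin added (-0.37 ± 0.12, adjusted p = 0.0421), which 7 of the 9 libraries left out in turn ended (highest adjusted p = 0.153, edgeR). Of 4 relatives and cofactors of EGR1 and the NR4A receptors 2 rose with doxorubicin and 2 fell with formononetin added (0 without doxorubicin replicate 1, and 1 without doxorubicin plus formononetin replicate 3, doxorubicin replicate 2 or 3, or any vehicle library). NAB1, a corepressor of EGR proteins, rose with doxorubicin (0.63 ± 0.11, adjusted p = 0.00183, edgeR) and fell with formononetin added (-0.46 ± 0.11, adjusted p = 0.0119, and 0.0539 without doxorubicin replicate 1). EGR2 rose too (1.28 ± 0.44, adjusted p = 0.0433), lost without doxorubicin replicate 1 or 2 or vehicle replicate 1 or 2 (highest adjusted p = 0.15, edgeR). EGR3 was the other that fell with formononetin added (-4.257 to -2.363 over the libraries left out in turn). It lost the call in 7 of the 9 cases (highest adjusted p = 0.1, edgeR). Of 6 KLF factors 3 fell with doxorubicin, and 4 rose and 1 fell with formononetin added (3 in all without doxorubicin replicate 2 or 3). KLF9 fell with doxorubicin (-0.94 ± 0.15) and rose with formononetin added (1.30 ± 0.15), and KLF2, the shear-stress factor of endothelium, did likewise (-0.75 ± 0.15 and 0.72 ± 0.15). Of the 9 endothelial markers 4 fell with doxorubicin (median -0.45) and 3 rose with formononetin added (median 0.33); their part in the KLF2 values was not tested. KLF10 went another way: it averaged 11.4 ± 2.13 CPM with doxorubicin plus formononetin, 36.2 ± 1.25 CPM with doxorubicin and 31.1 ± 2.69 CPM with vehicle. It fell against both (-1.67 ± 0.14 and -1.45 ± 0.14, adjusted p = 5.41e-05 and 4.49e-04, edgeR).

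Of 34 other early genes tested, 9 rose and 9 fell with doxorubicin, and 7 rose and 7 fell with formononetin added (medians 0.19 and -0.13). BTG2, an antiproliferative p53 target, rose with doxorubicin (1.13 ± 0.13) and fell with formononetin added (-1.79 ± 0.14), and MCL1, a survival factor of the BCL2 family, did likewise (0.71 ± 0.12 and -0.97 ± 0.12). ZFP36, which marks early transcripts for decay, moved the opposite way, at 36.6 ± 6.40 CPM with doxorubicin plus formononetin, 14.7 ± 2.00 CPM with doxorubicin and 29.6 ± 2.76 CPM with vehicle. It fell with doxorubicin (-1.01 ± 0.15, adjusted p = 7.10e-04) and rose with formononetin added (1.32 ± 0.15, adjusted p = 2.86e-04, edgeR for both). CEBPB, a leucine zipper factor of inflammation and growth, did the same (-1.19 ± 0.12 and 0.96 ± 0.12). PPP1R15A fell with doxorubicin (-0.767 to -0.639 over the libraries left out in turn), a call kept in each case. It was also lower with doxorubicin plus formononetin than with vehicle (-0.705 to -0.617). That call was lost without vehicle replicate 1 or 3 (highest adjusted p = 0.0645, edgeR). BTG2 too was below vehicle with doxorubicin plus formononetin (-0.798 to -0.543), a call lost in 8 of the 9 cases. Early genes of the matrix and secreted signals rose in 5 of 9 cases with doxorubicin and none fell, and 4 of 9 fell with formononetin added (medians 0.43 and -0.60). With 1 library left out the count called was 4 to 5 in each comparison. Among the 5 rises, 1 lost its call in 5 of the 9 libraries left out (highest adjusted p = 0.145, edgeR). The matricellular gene CYR61 rose by 1.10 ± 0.20 with doxorubicin and fell by 0.89 ± 0.20 with formononetin added. CTGF, a matricellular gene of scarring tissue, averaged 58.2 ± 5.43 CPM with doxorubicin plus formononetin, 263 ± 16.5 CPM with doxorubicin and 69.0 ± 13.3 CPM with vehicle. It rose by 1.93 ± 0.15 (adjusted p = 2.1e-05) with doxorubicin and fell by 2.18 ± 0.15 with formononetin added (adjusted p = 1.69e-05, edgeR for both).

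Of 24 MYC target genes, 6 rose and 6 fell with doxorubicin and 4 rose and 6 fell with formononetin added (medians 0.05 and -0.03). The nucleolar gene NCL fell with doxorubicin (-0.44 ± 0.09) and rose with formononetin added (0.39 ± 0.09), while the translation factor gene EIF4E did the reverse (0.98 ± 0.12 and -0.63 ± 0.12). Of 12 MYC partners and relatives 3 fell with doxorubicin, among them the MYC antagonist genes MXD4 (-0.60 ± 0.13) and MNT (-0.81 ± 0.19), and 1 rose and 1 fell with formononetin added (0 without doxorubicin replicate 1 or 2 or any vehicle library, and 1 without doxorubicin plus formononetin replicate 1 or doxorubicin replicate 3). The partner MAX did not pass in either comparison (0.13, adjusted p = 0.516, and -0.24, adjusted p = 0.206, edgeR). Of 9 genes of the ATF4 and ATF3 stress response, ATF5 and DDIT4 fell with doxorubicin and none rose, and 1 rose and 2 fell with formononetin added. DDIT4, a stress-induced brake on mTOR signalling, was the gene that rose, at 86.4 ± 13.7 CPM with doxorubicin plus formononetin and 47.2 ± 6.44 CPM with doxorubicin (0.87 ± 0.14, adjusted p = 0.00124, edgeR), a call kept with each library left out. ASNS (-0.62 ± 0.15) and SESN2 (-2.45 ± 0.76) fell; ASNS lost the call without doxorubicin replicate 3 (adjusted p = 0.0507), and SESN2 without doxorubicin plus formononetin replicate 1, any doxorubicin library or vehicle replicate 3 (highest adjusted p = 0.11, edgeR). With doxorubicin against vehicle, ATF5 lost its call without doxorubicin replicate 1 or vehicle replicate 2 or 3, and DDIT4 without doxorubicin replicate 1 or 2 or vehicle replicate 1 or 3 (highest adjusted p = 0.0714 and 0.098, edgeR). Without doxorubicin plus formononetin replicate 2 or 3 the same list gave 2 rises and 2 falls, and without doxorubicin replicate 1 or vehicle replicate 3 it gave 0 of either; without doxorubicin replicate 2 or vehicle replicate 1 or 2 it gave 1 fall. Of 10 heat shock and chaperone genes 5 rose and 1 fell with doxorubicin, and 6 fell with formononetin added. The endoplasmic reticulum chaperone HSPA5 was among them, at 0.81 ± 0.11 with doxorubicin and -1.24 ± 0.11 with formononetin added.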

How the data were processed

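The authors deposited 1 table of raw counts per gene for 9 heart libraries, with a length for each gene, per the file headers; per the labels' protocols RNA was isolated with RNeasy columns and libraries were made with a SMARTER mRNA kit. The aligner and the counter were not given in the sources used here, nor was the use of strand; no other entry of the table overlaps the members. Gene identifiers matched RefSeq (Sscrofa11.1) for 30335 entries, all with the same symbol and start, so coordinates are from that assembly. In R 4.3.3, genes were filtered with filterByExpr (minimum count 10), scaled by TMM, and fitted with edgeR 4.0.16, 1 mean per group over all 9 libraries; 14846 genes were tested and p-values were Benjamini-Hochberg adjusted over all of them. Standard errors are the log2 fold change over the square root of F. CPM is per 1000000 scaled counts, and log2 CPM used a prior count of 2. DESeq2 1.42.0, limma 3.58.1 (voom), other scalings, no filter, 2-group fits, a replicate block and each library left out were the alternatives; the procedure was tested on simulated data. No sequences were used here. All members were named. Genes named from the related lists came from up to 3 called genes a direction with the smallest p (all, where 5 or fewer passed). The text names only some of the genes that this rule gave, so those printed do not stand for their whole list. DUSP1 and MAX were added after their values were seen. One gene of the matrix list is not reported here. Members and lists were chosen with earlier results of these data known. Related lists were followed through the alternatives by a choice made after seeing the data.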

Additional observations from a re-analysis of the deposited data

How the results depend on the processing

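Over the 9 libraries left out in turn, the factors called numbered 5 to 7 with doxorubicin against vehicle, 4 to 6 with doxorubicin plus formononetin against doxorubicin and 1 with doxorubicin plus formononetin against vehicle, and all genes called numbered 3316 to 6657, 2801 to 4436 and 64 to 465. In that last comparison the 262 genes became 488 with no low-count filter, 748 by DESeq2, 118 with only the 2 groups compared and 124 with the replicate block, and DESeq2 called 2 factors. The replicate numbers did not pair the libraries (same-number deviations correlated from -0.204 to 0.027, other pairs from -0.114 to 0.139). As a paired fit, the replicate block left 4 of the 7 factors called with doxorubicin plus formononetin against doxorubicin, without FOS (adjusted p = 0.0765, edgeR), EGR1 (0.0813) and ATF3 (0.0522). Total-count scaling moved the median log2 fold change to -0.105 in that comparison and the split to 1548 higher and 2707 lower genes, against 2176 and 1997 with TMM; against vehicle it was 104 and 196, beside 142 and 120. Uncalled log2 fold changes that changed sign as libraries were left out were those of FOSB (-1.733 to 0.301) and MYC (-0.187 to 0.038) with doxorubicin against vehicle, and of FOS (-0.177 to 0.756), JUNB (-0.409 to 0.105) and NR4A2 (-0.185 to 0.194) with doxorubicin plus formononetin against vehicle; NR4A2 was 0 there with mitochondrial genes left out of the scaling. The cause was not tested. FOS and FOSB rest on fewer than 100 counts in each library, which limits their precision.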
